A study of Sus scrofa with 16 samples.

Results

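The accessible chromatin regions of newborn pig skeletal muscle were compared with those of 5 other newborn tissues. The muscle list held 57126 consensus peaks, of which 54830 lay on chromosomes 1 to 18 and were used here. These are a part of the 798988 peaks in the 8 lists of the whole series. Each muscle peak was put in a class from 0 to 5, the number of other newborn lists (heart, kidney, lung, spleen and liver) with a peak that shared at least 1 bp with it. Class 0 therefore holds peaks called in muscle and in none of the other 5 lists, and class 5 holds peaks that overlapped all of them. Accessibility was measured by ATAC-seq, in which a transposase cuts open DNA and leaves sequencing adaptors there. The 6 groups share sex, age and breed: female crossbred domestic pigs on the day of birth in the labels (newborn, a day old in the methods), with no treatment. According to the methods, the same 2 full-sib Berkshire × Tibetan hybrid newborns gave all 6 tissues, and the muscle was longissimus dorsi, a back muscle. Each list combines 2 replicates, so a list has no replicate error, and nuclei came from whole tissue, so fewer nuclei of a cell type and less accessibility per nucleus cannot be told apart. No sequencing depth is recorded in the lists, and the read counts that the paper gives for each library were not used here. The lists of liver at 28 and 180 days, from untreated female crossbred pigs of those ages (2 full-sib animals an age), were set beside the classes at the end.

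Skeletal muscle is built and maintained by a small set of transcription factors. MYOD1, MYF5, myogenin (MYOG) and MYF6 bind E-boxes, short sites of the form CANNTG, together with partner E-proteins, and MEF2 proteins act with them. The genes they serve encode the contractile filaments of fast and slow fibres, the calcium release machinery, the synapse with the motor neuron and the dystrophin complex at the membrane. Heart shares many contractile genes with skeletal muscle but lacks the MYOD1 family.

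The sequences below are the 201 bases centred on the summit of 6 muscle peaks, on the plus strand of Sscrofa11.1, and they show the sites that the motif results turn on. Capitals mark the E-box core CAGCTG, the core CACCTG, which reads CAGGTG on the other strand, and the GC box GGGCGG, which reads CCGCCC there. The class 0 distal peak nearest to LOC100151870 (chr4:11472359-11472559, intergenic) and that nearest to ESR2 (chr1:193679230-193679430, intergenic) were among the strongest outside promoters. The class 0 promoter peaks of MYH2 (chr12:55278423-55278623), a fast myosin heavy chain, and LMOD3 (chr13:50554207-50554407), an actin filament nucleator, each held 2 CAGCTG sites. The CAV3 promoter peak (chr13:65117625-65117825) was shared with heart alone, and the ZNF622 promoter peak (chr16:5714475-5714675) was shared with all 5 tissues and held 2 GC boxes and no CAGCTG.
LOC100151870 distal peak: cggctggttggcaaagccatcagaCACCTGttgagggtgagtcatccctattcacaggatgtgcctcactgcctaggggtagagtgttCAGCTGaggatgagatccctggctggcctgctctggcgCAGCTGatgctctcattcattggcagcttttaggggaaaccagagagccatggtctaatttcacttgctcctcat
ESR2 distal peak: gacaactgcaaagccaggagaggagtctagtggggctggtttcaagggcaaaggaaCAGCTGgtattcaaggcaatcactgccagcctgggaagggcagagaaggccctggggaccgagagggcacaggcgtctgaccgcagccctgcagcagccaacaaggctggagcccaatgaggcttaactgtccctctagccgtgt
MYH2 promoter peak: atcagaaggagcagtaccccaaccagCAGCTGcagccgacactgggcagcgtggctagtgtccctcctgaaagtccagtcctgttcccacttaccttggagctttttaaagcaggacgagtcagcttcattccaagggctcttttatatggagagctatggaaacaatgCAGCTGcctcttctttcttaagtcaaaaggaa
LMOD3 promoter peak: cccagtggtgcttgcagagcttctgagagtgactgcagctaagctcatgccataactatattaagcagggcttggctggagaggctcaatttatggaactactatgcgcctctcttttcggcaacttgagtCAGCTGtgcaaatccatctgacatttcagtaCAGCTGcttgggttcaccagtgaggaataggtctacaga
CAV3 promoter peak: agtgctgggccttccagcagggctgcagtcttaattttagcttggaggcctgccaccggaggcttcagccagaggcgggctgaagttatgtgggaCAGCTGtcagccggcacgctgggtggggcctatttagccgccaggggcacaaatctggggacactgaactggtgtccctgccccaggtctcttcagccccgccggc
ZNF622 promoter peak: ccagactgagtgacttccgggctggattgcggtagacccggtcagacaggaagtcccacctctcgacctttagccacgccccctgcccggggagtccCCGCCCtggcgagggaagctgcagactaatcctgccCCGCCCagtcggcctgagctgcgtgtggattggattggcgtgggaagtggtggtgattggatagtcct

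Most muscle peaks fell at the ends of the scale. Class 5 held 20444 peaks (37.3%, Wilson 95% confidence interval 36.9 to 37.7%) and class 0 held 12141 (22.1%, interval 21.8 to 22.5%). Classes 1, 2, 3 and 4 held 8008, 5402, 4282 and 4553 peaks. The order of class 0 and class 5 turned when each newborn list was reduced to its strongest peaks at equal length (16642 against 10330) and when only peaks with an irreproducible discovery rate (IDR) of 0.05 or lower were kept in every list (5256 against 2998). Such intervals cover counting error only, here and throughout. Over the 18 autosomes, the class 0 share ran from 16.9% on chromosome 12 to 27.9% on chromosome 15, and class 5 was lowest on chromosome 15 (29.9%) and highest on chromosome 12 (47.7%). Peaks were also wider in class 5 (median 747 bp) than in class 0 (median 340 bp), and a wider peak can meet the 1 bp rule more easily.

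Muscle peaks outside promoters made up nearly all of class 0, whereas 53.1% of class 5 peaks lay in promoters. A promoter here reaches from 2.2 kb upstream to 500 bp downstream of a transcription start site (TSS) of a protein-coding gene (PCG), and a peak that overlapped it by 1 bp was counted. The promoter share rose from 3.57% in class 0 (433 peaks, interval 3.25 to 3.91%) through 5.11, 6.11, 8.59 and 14.4% in classes 1 to 4 to 53.1% in class 5 (10855 peaks, interval 52.4 to 53.8%). It was lower in class 0 than in class 5 on 18 of 18 autosomes and lower in class 0 than in class 1 on 15. Introns held 49.5% of class 0 peaks, 49.3% of class 1 and 18.2% of class 5, and intergenic DNA held 38.6, 37.2 and 21.5%. Exon shares differed little, between 6.87 and 8.12% in all 6 classes. Read the other way, 83.2% of the 13049 muscle promoter peaks were of class 5 and 3.32% of class 0, against 29.6% class 0 among the 20315 intronic peaks.

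**Figure D1:**
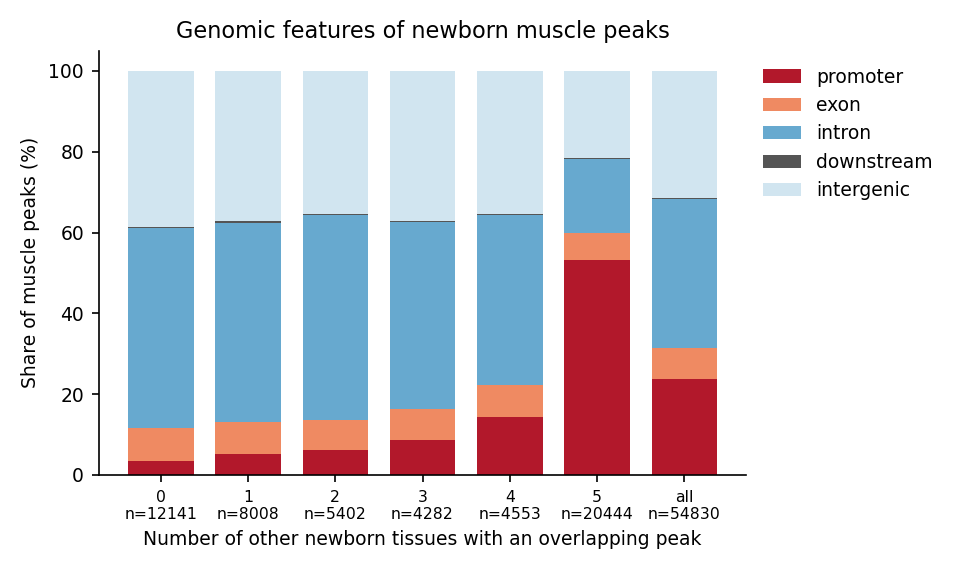
Share of muscle peaks (y axis, %) in promoters, exons, introns, 300 bp downstream of genes and intergenic DNA, for each number of other newborn tissues overlapped (x axis, with the number of peaks). The promoter part grows from 3.57% in class 0 to 53.1% in class 5.

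The distance to the nearest PCG start fell with the number of tissues that shared a peak. The median was 39.6 kb in class 0 (quartiles 13.4 and 110.6 kb), 35.0 kb in class 1, 33.7 kb in class 2, 28.9 kb in class 3 and 22.9 kb in class 4, then 0.757 kb in class 5 (quartiles 0.119 and 19.3 kb). Each step down held on at least 13 of 18 autosomes, and that from class 4 to class 5 on 18. More than 100 kb separated 27.1% of class 0 peaks from any PCG start, against 6.03% of class 5. Among distal peaks, those outside every promoter, the median fell from 42.5 kb in class 0 to 21.6 kb in class 5. Chromosome 12 gave the shortest class 0 median, 18.6 kb, and chromosome 11 the longest, 59.9 kb.

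**Figure D2:**
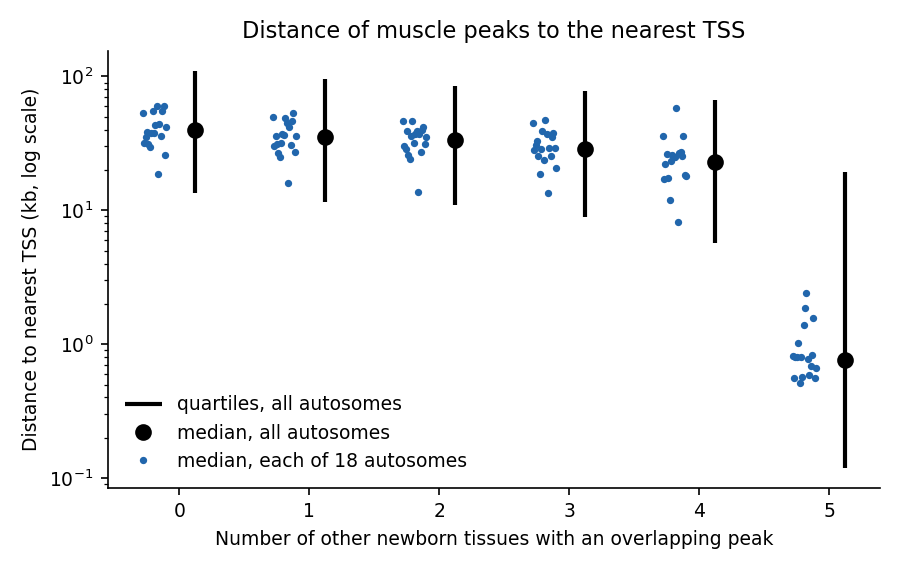
Distance from the midpoint of muscle peaks to the nearest PCG start (y axis, kb, log scale) by the number of other newborn tissues overlapped. Black points and lines are the median and quartiles over all autosomes and blue points the median of each of the 18 autosomes. Class 5 medians, from 0.513 to 2.40 kb, lie below the medians of every other class.

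Heart was the tissue that muscle peaks met most often, although its list was the shortest of the other 5. Of all muscle peaks, 61.3% overlapped a heart peak, 59.4% a kidney peak, 55.6% a liver peak, 51.9% a lung peak and 49.2% a spleen peak, from lists of 70391, 128184, 115504, 77408 and 81289 peaks on the autosomes. Promoters hardly separated the tissues (88.2 to 91.7%), and distal peaks did so more (51.9% for heart, 37.0% for spleen). In class 1, where a muscle peak has 1 partner, that partner was heart for 3508 peaks (43.8%), kidney for 1874 (23.4%), liver for 1186 (14.8%), lung for 787 (9.83%) and spleen for 653 (8.15%). Seen from the other lists, 47.0% of heart peaks but 25.2% of kidney peaks overlapped a muscle peak. List length moves all of these shares, and its part in them was not tested.

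Strong peaks were more often shared. Strength is the deposited signal value of a peak, read here as its −log10 p. It was taken as the smaller of the values in the 2 replicates and compared within the muscle list only. In the strongest of 10 equal parts of the list, 71.5% of peaks were of class 5 and 5.89% of class 0, and in the weakest 25.7% and 29.2%. An IDR of 0.05 or lower marks peaks that rank both high and alike in the 2 replicates. Weak peaks can miss it with near-equal values, as 1 at CACNG1 did (4.64 and 4.75, IDR 0.631). It was reached by 43.2% of class 5 and 17.4% of class 0 peaks, whose median smaller −log10 p was 11.6 and 6.78. Among distal peaks the classes differed less, with median smaller −log10 p of 6.76 in class 0 and 8.60 in class 5.

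The E-box core CAGCTG was about as common in distal muscle peaks of classes 0 to 3 and rarer in class 5. Within 100 bp of the summit it was present in 30.3% of 11708 distal class 0 peaks (interval 29.4 to 31.1%), 31.3% of class 1, 31.7% of class 2, 30.7% of class 3, 28.4% of class 4 and 22.7% of class 5 (interval 21.9 to 23.5%). Evenly spaced genome windows of the same length held it in 9.60% and windows at PCG starts in 12.9%. Class 0 exceeded class 5 on 18 of 18 autosomes but class 1 on 7. The share also moved with base composition, and for windows of 40 to 50% GC it was 24.0% in class 0, 24.9% in class 1 and 18.5% in class 5. In windows of 60% GC or more the corresponding shares were 47.0, 43.1 and 23.1%. Peaks with 2 or more copies, such as the LOC100151870 distal peak printed above, made up 5.37% of distal class 0 and 3.57% of distal class 5.

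The core CACCTG behaved differently and fell with each tissue that shared a peak. It was present in 25.6% of distal class 0 peaks (interval 24.9 to 26.4%), 21.0% of class 1, 19.8% of class 2, 17.9% of class 3, 17.1% of class 4 and 15.8% of class 5 (interval 15.1 to 16.6%), with 12.5% of genome windows. Class 0 exceeded class 1 on 18 of 18 autosomes. CAGCTG and CACCTG sites cannot share a base, so one count does not feed the other. Of the 10 CANNTG cores, CAGCTG was the most frequent in class 0, and CATATG, with 5.04% of class 0 peaks against 11.0% of genome windows, was below its genome share.

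MEF2 sites followed another course, with the highest share in class 1. They were found in 2.39% of distal class 0 peaks (interval 2.13 to 2.68%), 3.82% of class 1 (interval 3.41 to 4.27%) and 1.05% of class 5, with 0.691% of genome windows. Class 0 exceeded class 1 on 1 of 18 autosomes. In class 0 a MEF2 site was present in 0.931% of peaks with CAGCTG and in 3.03% of peaks without it, and in class 5 in 1.06 and 1.05%.

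MEF3 and PITX sites were more frequent in class 0 than in any other class, which did not hold for AP-1, TEAD or GATA sites. The MEF3 site TCAGGTT shares letters with CAGGTG but does not contain it. It was present in 4.94% of distal class 0 peaks, 3.70% of class 1 and 2.24% of class 5, with 3.88% of genome windows. The PITX site (TAATCC) gave 9.0, 7.49 and 4.10%, with 7.29% of genome windows, so its class 5 share lay under that of the genome. Both exceeded class 1 in class 0 on 15 of 18 autosomes. The AP-1 site TGACTCA was flat from class 0 to class 4 (10.4 to 11.2%) and lower in class 5 (7.14%), with 3.20% of genome windows. The RUNX site TGTGGT (15.3%) and the GATA site AGATAA (6.88%) were below their genome shares of 18.9 and 13.7% in class 0. The TEAD site GGAATG gave 14.2, 15.3 and 11.7% in classes 0, 1 and 5, with 10.4% of genome windows.

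CTCF sites, GC boxes and ETS sites rose with sharing. This was not particular to them, since for the SPI1 site GAGGAAGT class 0 also exceeded class 5 on 0 of 18 autosomes. The median GC of distal windows rose as well, from 49.8% in class 0 to 57.7% in class 5. Its part in these shares was not tested. CTCF, which anchors chromatin loops, matched 0.222% of distal class 0 peaks (interval 0.152 to 0.325%), 0.461, 1.20, 2.30 and 5.31% of classes 1 to 4, and 10.4% of class 5 (interval 9.76 to 11.0%), with 0.128% of genome windows. The GC box GGGCGG of SP and KLF factors rose from 6.37 to 26.8%, and the ETS site CCGGAAG from 0.760 to 4.48%. In promoter peaks GC boxes were also rarest in class 0 and CAGCTG rarest in class 5, with GC boxes in 10.4% of class 0 and 64.6% of class 5, and CAGCTG in 33.7% of class 0 and 11.8% of class 5. At all PCG starts, GC boxes were in 47.0% and CAGCTG in 12.9% of windows. Every motif was searched on both strands, and a match is a run of letters, not a bound site.

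**Figure D3:**
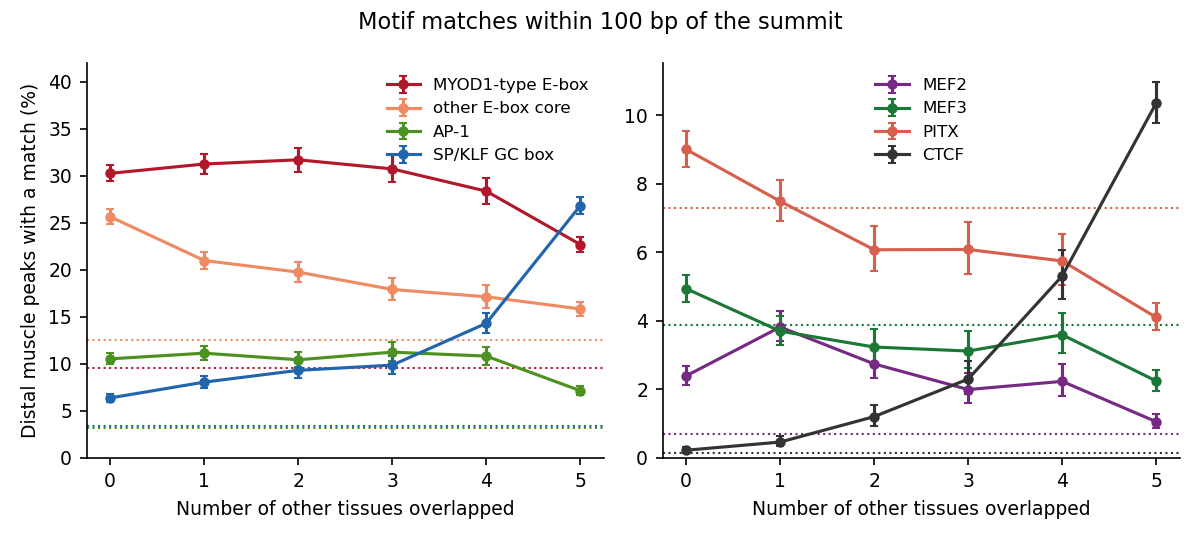
Share of distal muscle peaks with a motif within 100 bp of the summit (y axis, %, with Wilson 95% intervals) by the number of other newborn tissues overlapped, with dotted lines for genome windows of the same length. The MYOD1-type E-box is CAGCTG and the other E-box core is CACCTG. The first stays between 30.3 and 31.7% up to class 3, the other falls from 25.6 to 15.8%, MEF2 peaks at 3.82% in class 1 and CTCF reaches 10.4% in class 5.

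CAGCTG sites stood at the summits. In 20 bp bins, distal class 0 peaks had 4.72 sites per 100 peaks in the bin around the summit and 1.03 and 1.20 in the bins 250 bp away. Class 1 peaks were much alike (4.78 at the summit), and class 5 peaks rose less, to 3.20 from 1.64 and 1.45 at the edges. The share of peaks with the core also grew with strength inside every class: in class 0 it was 26.5, 30.6 and 33.7% in the weakest, middle and strongest of 3 equal parts, and in class 4 it was 21.7, 26.3 and 37.1%.

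**Figure D4:**
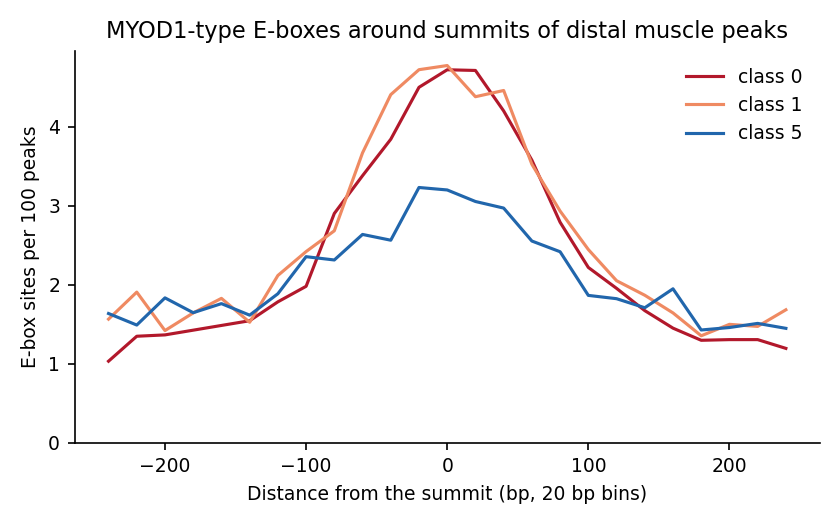
Number of CAGCTG sites per 100 distal muscle peaks (y axis) by distance from the summit in 20 bp bins (x axis, bp) for classes 0, 1 and 5. Classes 0 and 1 reach 4.72 and 4.78 at the summit and class 5 reaches 3.20.

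The E-box share differed with the partner. Among distal class 1 peaks, CAGCTG was present in 41.5% of those shared with spleen (258 of 622, interval 37.7 to 45.4%), 34.0% of those shared with kidney, 31.1% with liver, 30.2% with lung and 28.2% with heart (936 of 3325, interval 26.7 to 29.7%). Peaks shared with kidney and spleen alone had the largest share of the 32 combinations, 44.7% (132 of 295, interval 39.2 to 50.5%). The combination of heart, lung, spleen and liver had the smallest, 21.1% (interval 17.4 to 25.5%).

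Class 0 peaks of the other tissues, chosen by the same rule from their own lists, carried other sites. CAGCTG was present in 30.3% of the distal class 0 peaks of muscle, against 22.5% in spleen, 19.1% in kidney, 17.0% in heart, 15.3% in liver and 13.7% in lung. For CACCTG the shares were 25.6% in muscle, 13.4% in heart and 10.6% in spleen, with 17.7 to 18.7% in the others. MEF2 sites were frequent in both striated muscles, with 2.39% in muscle and 3.52% in heart, against 0.271 to 0.932% in the other 4. The GATA site AGATAA separated these muscles, with 6.88% in skeletal muscle and 20.9% in heart, and 13.7% of genome windows. AP-1 sites were in 10.5% of muscle peaks and in 4.0 to 6.31% of the others.

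The markers of the label were checked next. ATP2A1, the calcium pump of fast fibres, had 6 class 0 promoter peaks and 8 class 0 peaks within 10 kb of the gene, with smaller −log10 p of up to 12.6 in its promoter. The IDR of these 6 promoter peaks ran from 0.110 to 0.631, so none met the IDR limit stated above. TRIM72, which acts in membrane repair, had 2 class 0 promoter peaks. That at chr3:17297578-17298213 reached 81.4 in replicate 1 and 75.5 in replicate 2, and its IDR was 0.00132. The SCN4A promoter, of the muscle sodium channel, had a class 0 peak with values of 17.7 and 17.2 and a class 2 peak shared with heart and kidney (15.0 and 13.9). MYOD1 went the other way. Its promoter peak, with values of 44.9 and 63.2, was of class 3 and overlapped peaks in kidney, lung and liver, and no class 0 peak lay within 10 kb of the gene. An overlap shows that an interval was called in the other list and says nothing of expression.

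The 132 matched genes of 8 lists of muscle genes stood beside all 18708 PCGs as follows. A class 0 promoter peak was present at 37 of them (28.0%), against 2.07% of all PCGs, and a class 0 peak within 10 kb at 103 (78.0%), against 25.7%. A class 5 promoter peak was present at 49 (37.1%), against 57.6%, and any muscle promoter peak at 123 (93.2%), against 62.2%. Per 100 kb of gene and flank the lists held 3.6 class 0 and 1.40 class 5 peaks, and all PCGs 0.666 and 1.79. The order of the class 0 and class 5 gene counts turned with the processing: 47 genes had a class 0 and 24 a class 5 promoter peak with lists of equal length, 41 and 1 with the IDR limit in every list, and 49 and 41 with an overlap of 50% of the muscle peak. The 37 genes shared 59 class 0 promoter peaks, of which 26 had an IDR of 0.05 or lower, 49 lay within 1 kb of a start and 19 held CAGCTG. The lists were written from general knowledge with results of these data in view, so the counts describe them and are no test.

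Fast-fibre genes held the densest class 0 peaks of the 26 lists. Of 13 genes, 8 had a class 0 promoter peak and 12 a class 0 peak within 10 kb, with 57 such peaks or 12.1 per 100 kb. The myosin heavy chains MYH1, MYH2 and MYH4 lie side by side on chromosome 12. MYH1 had 3 class 0 promoter peaks, MYH2 had 2 and MYH4 had 2, and none of the 3 genes had a promoter peak of any other class. By the smaller replicate value the strongest was at MYH2, with −log10 p of 19.5 and 23.7, and those at MYH4 were weak, with 4.84 and 10.4, then 4.83 and 8.99. TNNT3, the fast troponin T, had 5 class 0 promoter peaks, the strongest with 40.2 and 27.4. MYL1, an alkali light chain, had 1 with 47.3 and 54.4, and MYLPF, the fast regulatory light chain, had 2 with 22.2 and 22.6, then 18.7 and 22.4. PVALB, which encodes the calcium buffer parvalbumin, was the 1 fast-fibre gene without a muscle promoter peak.

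Slow-fibre genes, many of which also work in heart, were more often of class 1. Of 12 genes, 3 had a class 0 promoter peak (MYH7B, MYL2 and TPM3) and 5 a class 1 promoter peak, beside 2.07 and 2.0% of all PCGs. Within 10 kb the 12 genes held 13 class 0 and 25 class 1 peaks. TPM3, a slow tropomyosin, had the strongest class 0 promoter peak of the list, with 48.1 and 44.5. MYL3, MYOZ2, TNNT1 and CSRP3 had class 1 promoter peaks whose partner was heart. MYH7, the slow myosin heavy chain of muscle and ventricle, had a class 1 promoter peak whose partner was kidney. The MYH7 peak was weak, with 5.71 and 9.55 and an IDR of 0.631. Of 4 developmental contractile genes, MYL4, the embryonic alkali light chain, had a class 0 promoter peak, with 4.40 and 5.03.

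Sarcomere genes had many peaks in their bodies. Of 29, 8 had a class 0 promoter peak (CAPN3, KLHL40, LDB3, LMOD3, MYBPC1, MYOZ1, MYPN and NEB) and 10 a class 1 promoter peak, and 26 had a class 0 peak within 10 kb, with 162 class 0 and 101 class 1 peaks in all. NEB, nebulin, the ruler of the thin filament, held 32 class 0 and 5 class 1 peaks. TTN, titin, which is as prominent in heart, held 26 and 20. MYBPC1, myosin-binding protein C of slow fibres, held 22 class 0 peaks and 1 class 1 peak over 93.3 kb, and its promoter peak had −log10 p of 64.8 and 73.7. LMOD3 and KLHL40, which stabilises thin filaments, had class 0 promoter peaks with 54.9 and 47.2, and with 53.4 and 43.0, each with 2 CAGCTG sites.

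Genes of excitation and calcium release had 6 of 22 with a class 0 promoter peak. These were the calcium channel subunits CACNA1S, CACNB1 and CACNG1, the chloride channel CLCN1, SCN4A and SLN, which encodes sarcolipin, an inhibitor of the calcium pump. CACNG1 reached 67.3 and 52.2, SLN 42.01 and 36.7, CLCN1 36.0 and 37.4 and CACNB1 33.4 and 31.1. CACNA1S differed between replicates, with 53.5 and 4.97. It and CHRNG were the 2 genes among the 59 peaks whose replicate values differed by more than 3-fold. RYR1, the calcium release channel, had a class 2 promoter peak and 8 class 0 peaks within 10 kb, and TRDN, triadin, had 16.

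At the neuromuscular junction, 4 of 14 genes had a class 0 promoter peak: the acetylcholine receptor subunits CHRNB1, CHRND and CHRNG, and LRP4, the receptor for agrin. Their peaks were modest. CHRND reached 22.2 and 8.10 and CHRNG 3.93 and 14.3, and no class 0 promoter peak of these genes met the IDR limit of 0.05. CHRNA1, the receptor's alpha subunit, had a class 1 promoter peak with spleen as its partner, and MUSK, the receptor kinase, had one with heart.

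In the membrane and dystrophin list 3 of 21 genes had a class 0 promoter peak and 13 a class 5 promoter peak. The shares of all PCGs were 2.07 and 57.6%. The 3 with a class 0 promoter peak were TRIM72, ITGA7, the muscle laminin receptor, with 39.0 and 33.9, and CAVIN4, a caveolar protein, with 49.0 and 25.7. Several genes with class 5 promoters had class 0 peaks inside or beside them, with 14 at LAMA2, 7 at DYSF, the membrane repair protein dysferlin, and 5 at DAG1, dystroglycan.

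The regulators of myogenesis were mixed. Of 17, 4 had a class 0 promoter peak (MYF6, PAX7, LBX1 and MEF2D) and 8 a class 5 promoter peak, beside 2.07 and 57.6% of all PCGs. The MYF6 peak reached 29.2 and 27.3, with its IDR at 0.0141, whereas those at PAX7 (4.83 and 12.7), LBX1 and MEF2D sat at 0.631, the highest IDR in the list. MYOG had a class 1 promoter peak whose partner was kidney, MYF5 had 2 of class 2, and MYF5 and MYF6, neighbours on chromosome 5, had 2 and 4 class 0 peaks within 10 kb. PAX7, MYF5 and 14 further genes of satellite cells, the stem cells of muscle, gave 1 class 0 promoter gene of 16.

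Of 21 metabolic genes of muscle, 6 had a class 0 promoter peak (ALDOA, AMPD1, CKM, ENO3, FBP2 and UCP3) and 16 a class 5 promoter peak. Among all PCGs, 2.07% had a class 0 and 57.6% a class 5 promoter peak. ALDOA and ENO3, 2 of the metabolic genes, had both. AMPD1, the muscle AMP deaminase, had 53.7 and 56.6, and FBP2, the muscle fructose bisphosphatase, 35.7 and 23.0, while CKM, muscle creatine kinase, had 5.87 and 8.93. For protein breakdown no gene of 14 had a class 0 promoter peak, against 2.07% of all PCGs, and 4 had a class 1 promoter peak, against 2.0%, the ubiquitin ligases FBXO32, TRIM63, TRIM54 and TRIM55. In growth signalling 3 of 19 had one: MSTN, or myostatin, which restrains muscle mass, IGF2, a fetal growth factor, and AKT2. MSTN had 7.64 in replicate 1 and 32.6 in replicate 2, and IGF2 11.4 and 16.1. Of 36 HOX genes, which set position along the body, HOXA3, HOXA7, HOXC5 and HOXC9 had a class 0 promoter peak, and HOXA3 had 54.7 and 33.1.

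For other cells and organs, and for housekeeping genes, 1 of 136 listed genes (0.735%) had a class 0 promoter peak, against 2.07% of all PCGs, and 24 (17.6%) had a class 0 peak within 10 kb, against 25.7%. With so few genes a list at 0 is close to the share of all PCGs. No class 0 promoter peak was found at 10 endothelial, 10 fibroblast, 10 smooth muscle or pericyte, 11 immune, 8 erythroid, 10 adipocyte, 11 heart, 10 liver, 9 kidney, 10 lung, 9 spleen or 22 housekeeping genes, and 1 of 6 Schwann cell and neuron genes (PMP22) had one. Heart and erythroid genes also had no class 0 peak within 10 kb. Any muscle promoter peak was present at 22 of 22 housekeeping, 8 of 10 smooth muscle, 6 of 10 fibroblast, 4 of 10 endothelial, 4 of 10 adipocyte, 3 of 11 heart, 1 of 11 immune, 1 of 8 erythroid, 1 of 6 Schwann cell and neuron, 1 of 10 liver, 1 of 10 lung, 0 of 9 kidney and 0 of 9 spleen genes. The 3 heart genes with one were TNNI3, MYBPC3 and TBX20.

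**Figure D5:**
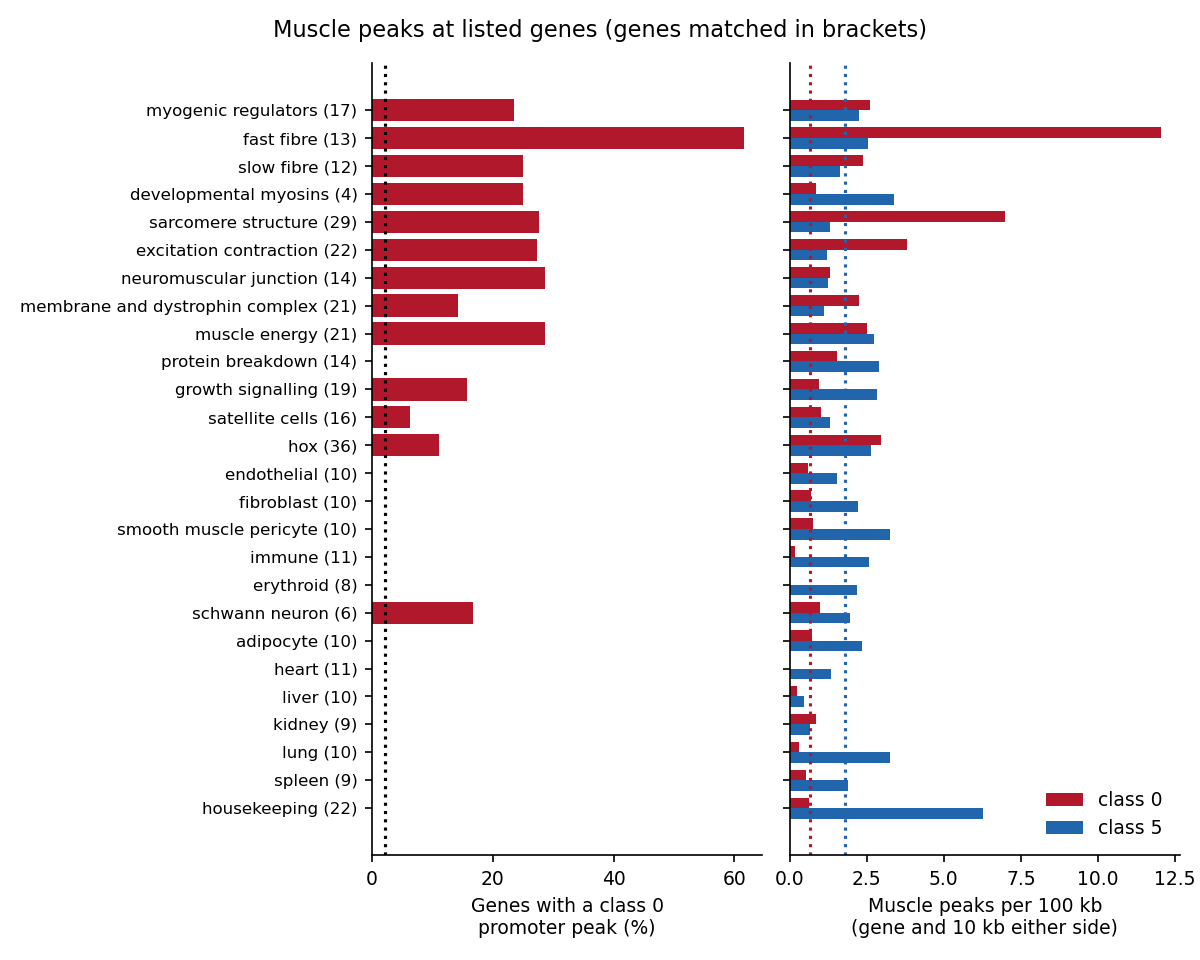
Left, share of the matched genes of each list (number in brackets) with a class 0 promoter peak (x axis, %). Right, class 0 and class 5 muscle peaks per 100 kb of gene and 10 kb flanks. Dotted lines are all 18708 PCGs. Fast-fibre genes have 12.1 class 0 peaks per 100 kb, against 0.666 for all PCGs.

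The partner of a class 1 promoter peak was usually heart for these muscle genes. Of the 28 genes of the 8 muscle lists with a class 1 promoter peak, 19 had one shared with heart, 4 with kidney (MYH7, MYOG, MYOZ3 and STAC3), 3 with lung (MEF2C, MYBPC2 and XIRP1), 1 with liver (LBX1) and 1 with spleen (CHRNA1). Counted as peaks, heart was the partner of 26 of 36. Over all class 1 promoter peaks heart was also the commonest partner, with 183 of 409 (44.7%). Without the heart list, class 0 promoter peaks were present at 53 of the 132 genes in place of 37, and at 2.85% of all PCGs in place of 2.07%. The strongest promoter peaks shared with heart alone were at USP28 (121.4 and 86.8), TRIM55, a sarcomere ubiquitin ligase (95.8 and 83.7), FSD2 (80.6 and 92.8), ACOT11 (86.2 and 79.6), DDX60 (77.1 and 91.0), SEMA6C (72.2 and 72.1), CAV3, the muscle caveolin (71.4 and 80.4), and CACNA2D1, a calcium channel subunit (70.4 and 79.8). The USP28, TRIM55, SEMA6C and CAV3 windows each held 1 CAGCTG site, and the FSD2, ACOT11, DDX60 and CACNA2D1 windows held none.

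Of the 388 PCGs with a class 0 promoter peak, 275 had a further muscle promoter peak of another class and 113 (29.1%) did not, and 319 (82.2%) had a promoter peak in at least 1 of the other 5 lists. The remaining 69 (17.8%) had no promoter peak in any of them. Of these 69, 15 were in the 8 muscle lists, 4 in other lists (AMPD1, FBP2, HOXC9 and MSTN) and 50 in no list. The 15 were MYF6, PAX7, MYH1, MYH2, MYH4, MYL1, MYL2, MYLPF, TNNT3, MYBPC1, LMOD3, SLN, CACNG1, ITGA7 and TRIM72. A gene may have several starts, so an open promoter in another tissue need not be the same start.

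The strongest class 0 promoter peak was at LOC100514032, for which the annotation gives no gene name, with −log10 p of 104.0 and 163.8. Next came TRIM72, described above, and BEST3, a bestrophin channel (82.1 and 69.3), then MYBPC1, MYLK4, a myosin light chain kinase (60.8 and 72.9), LOC100621820 (58.4 and 62.7), FSD1L (71.2 and 57.1) and AMPD1. Their IDR lay between 0.000355 and 0.00282. None of their windows held CAGCTG, whose share over all class 0 promoter peaks is given above. By rank in the whole muscle list, the LOC100514032 peak stood at 734 and the AMPD1 peak at 4112.

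Distal class 0 peaks reached higher ranks. The strongest, in an intron of FAM13A (chr8:130154727-130155652, 133.6 kb from its start), had −log10 p of 147.4 and 143.0 and rank 180. An intergenic peak at chr4:11471990-11472918 (124.4 and 138.8) lay 728.2 kb from the nearest start, that of LOC100151870. The next lay 144.3 kb from ESR2 (131.1 and 120.9), 86.1 kb from AQP9 (117.2 and 117.3) and 474.1 kb from JARID2 (110.4 and 113.5). Others lay in an exon of VCL, which encodes the attachment protein vinculin (114.8 and 112.8), and 6.51 kb from STBD1, a glycogen-binding protein (109.2 and 106.9). Of these 7, 5 held CAGCTG and 1, at LOC100151870, held 2 copies. The nearest start is an address and not an assigned target.

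For comparison, the strongest class 5 promoter peaks had −log10 p of 263.9 and 386.4 at ZNF622, 229.3 and 281.3 at KBTBD8, 223.2 and 248.0 at the shared promoter of DNAJB9 and THAP5, and 217.6 and 237.5 at STT3A, with ranks from 11 to 17. None of these windows held CAGCTG, whose share over all class 5 promoter peaks is given above.

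Some genes had many class 0 peaks nearest to them, a small part of the 12141 in the class. By nearest start, QKI, an RNA-binding splicing regulator, had 30, TBX15, a T-box factor of fast fibres, 27, and KCNQ5, EYA4, TENM3, NEB and TTN 25 each, followed by ARPP21, ADCY2 and VGLL2 with 24. These genes differ in how exclusive they were. QKI also had 19 class 1 and 7 class 5 peaks and TTN 18 class 1 peaks, whereas TBX15 had 1 class 1 and 2 class 5 peaks and VGLL2, a TEAD cofactor of muscle, 1 and 1. Length matters to such counts, from 8.39 kb for VGLL2 to 2584 kb for TENM3. Runs of at least 3 class 0 peaks in which no gap exceeded 10 kb numbered 438 and took in 1578 peaks (13.0% of class 0). No other class was set beside these runs. The largest held 15 peaks over 63.6 kb at MYBPC1 and its neighbour CHPT1, named after the runs were seen. Others were 13 peaks over 44.9 kb at MYH4 and MYH1, of which 5 were promoter peaks, 10 over 32.6 kb at MYL1, 9 over 16.1 kb at TNNT3, 9 over 38.3 kb at NEB, and 8 each at TBX15 and SLN.

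Liver lists of later ages took no part in the classes, but newborn liver, the same tissue, was 1 of the 5 lists. By the rule, newborn liver overlapped no class 0 peak and every class 5 peak, with 14.8, 40.6, 63.6 and 86.4% of classes 1 to 4. A rise of later liver overlap over the classes is therefore not independent of the rule. A peak in liver at 28 or 180 days overlapped 9.08% of class 0 (1103 peaks, interval 8.59 to 9.61%), 26.7% of class 1, 50.6% of class 2, 69.4% of class 3, 86.5% of class 4 and 98.8% of class 5. Each class lay under the next on 18 of 18 autosomes. In class 1 the share was 79.3% where the partner was newborn liver and 14.4% where it was heart, with 22.4% for kidney, 20.8% for spleen and 17.3% for lung. For class 0, 5.54% overlapped the list at 28 days and 5.91% that at 180 days.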

How the data were processed

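Peaks came from 16 ATAC-seq libraries in 8 groups, of which the 6 newborn groups and 2 later liver groups were used. According to the methods, the authors aligned reads to Sscrofa11.1 with Bowtie2, filtered with SAMtools 1.3.1, called peaks per replicate with MACS2 and matched 2 replicates per list with IDR. MACS2 was run with a shift and a fixed extension together with a paired-end input format, so how summits stand to transposase cuts is uncertain. The deposited values are a signal value for either replicate, read here as a −log10 p, beside a −log10 IDR, and lists were not filtered on IDR. They depend on depth, which the lists do not give, so they were never compared between lists.

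Positions are counted from 1. Genes were those of the RefSeq annotation of Sscrofa11.1, with 44112 starts of 18708 PCGs on chromosomes 1 to 18. A peak took the first feature it overlapped by at least 1 bp, with promoters ranked over exons, exons over introns, and introns over the 300 bp past a gene end. Distances run from the peak midpoint to the nearest start. Motifs were searched on both strands 100 bp either side of the summit, beside 45281 windows spaced every 50 kb without unknown bases and 44111 windows at starts. Python 3 scripts with pandas and scipy gave shares and Wilson 95% intervals. They were tested on simulated intervals and against bedtools. No test was made, because each tissue has 1 pooled list and the classes are the rule itself.

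The classes, gene lists and motifs were chosen with earlier results of these data known. Of 398 list genes, 372 were matched to an autosomal PCG. Genes named are the 4 markers, members of the lists, the 10 genes with most class 0 peaks, and the strongest peaks with an IDR of 0.05 or lower (8 class 0 promoter, 8 class 0 distal, 8 promoter shared with heart alone, 4 class 5 promoter), and 1 of the distal peaks is not reported here. Alternatives were an overlap of 50% of the muscle peak, IDR limits, lists of equal length, intervals of 1 replicate, other promoters, starts and windows, and leaving out each list. Peaks on sex chromosomes and scaffolds were left out.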

Additional observations from a re-analysis of the deposited data

Results flagged for a closer look

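Muscle peaks on chromosome X were outside the classes above and entered no comparison. Of 1458, 380 overlapped none of the other 5 newborn lists (26.1%, Wilson 95% interval 23.9 to 28.4%). The class 0 share was 22.1% over all autosomes and ran from 16.9 to 27.9% on single autosomes, so the X share lay within their range. DMD, the dystrophin gene, held 22 class 0 peaks and 1 class 5 peak in its body and 10 kb flanks, over 2623 kb, or 0.833 class 0 peaks per 100 kb, against 0.666 over all autosomal PCGs. Among genes in no list, IL1RAPL2 held 12 class 0 peaks, AMOT, ARHGAP6 and POLA1 held 10 each and GPC3 held 7. SMPX, a small muscle protein, and PHKA1, the muscle phosphorylase kinase subunit, held 4 class 0 peaks each, and HPRT1, a housekeeping gene, held none.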

How the results depend on the processing

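No paired analysis was possible because no result comes from a test. The lists keep peaks matched in both replicates, and the intervals of either replicate across all lists were run as alternatives. Class 0 held less promoter and less later liver overlap than class 5, and lay farther from starts with more CAGCTG, under every alternative run for those results. Class 0 counts became 2113 with the IDR limit in the muscle list and 5256 with it in every list, since fewer peaks were left, and class 0 then outnumbered class 5 (2998), as it did with lists of equal length (16642 against 10330). The class 0 promoter share was 3.92% with an overlap of 50%, 4.73 and 5.96% with the IDR limit in the muscle list and in every list, 4.17% with equal lengths, 1.91% with promoters of 1 kb to 100 bp, 4.77% with the starts of all genes and 3.94% with the heart list left out. The median distance was 33.4 and 32.2 kb with these IDR limits, 37.3 kb with equal lengths and 28.5 kb with the starts of all genes. The CAGCTG share was 36.4 and 37.6% with the IDR limits and 19.3% with windows of 50 bp either side. Muscle genes with a class 0 promoter peak numbered 23 with the IDR limit in the muscle list, and 103 had a class 0 peak within 10 kb. The later liver share was 7.34% with an overlap of 50%, 11.0 and 13.0% with the IDR limits and 17.0% with equal lengths. It was 10.3, 10.9, 9.68 and 15.3% with the heart, kidney, spleen and liver lists left out. The cause was not tested beyond what each alternative removes. With the intervals of 1 replicate, class 0 held 12487 and 12856 peaks, 3.64 and 3.76% in promoters, with median distances of 39.5 and 39.2 kb, CAGCTG shares of 30.3 and 30.3%, 37 and 41 muscle genes and later liver shares of 8.97 and 8.72%. Merging overlapping muscle peaks changed nothing, since none overlap. Peaks that were not called in a list were not measured as closed.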
